A study of Mus musculus with 8 samples.

Results

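The Nrf2 antioxidant genes examined here are the transcription factor Nfe2l2 (Nrf2), its inhibitor Keap1, and 8 genes known as Nrf2 targets: Hmox1, Nqo1, Gclc, Gclm, Slc7a11, Gsr, Txnrd1 and Srxn1. Every probe set whose annotation gave exactly 1 of these 10 symbols was taken, which gave 21 of the 45037 probe sets on the array, and 20 of them passed the filter on low signal. The 4 groups were Tob1 null mice 24 h after partial hepatectomy, wild-type mice 24 h after it, Tob1 null mice at 0 h and wild-type mice at 0 h. All were male C57BL/6 mice of 7 to 10 weeks, and the null allele was carried on that background. Partial hepatectomy, the tying off and removal of the median and left lateral lobes, makes the remaining lobes regrow, and Tob1 is an antiproliferative protein described in the series title as a repressor of that regrowth. Each group had 2 Affymetrix arrays, each hybridised with liver RNA pooled from 3 different animals, and the series as analysed here has no sham-operated group.

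Nrf2 is a transcription factor that Keap1 holds in the cytoplasm and hands to a ubiquitin ligase for degradation. Electrophiles and oxidants modify cysteines of Keap1, Nrf2 then builds up, pairs with small Maf proteins in the nucleus and binds antioxidant response elements in its target genes. The targets make and recycle glutathione and thioredoxin, reduce quinones and break down haem, and in liver they are known for protecting hepatocytes against reactive drugs and oxidants. Much of this control acts on the protein, so the mRNA levels given below are not a measure of Nrf2 activity.

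Levels are given as log2 signal after quantile normalisation, in which 1 unit is a doubling, and a level of 1 probe set is not set against that of another because probe sets bind with different strength. Differences are log2 ± SE from a limma model of all 8 arrays, and a probe set is said to have passed where p, adjusted by Benjamini and Hochberg's method over all 30525 probe sets tested, was under 0.05. Replicate arrays correlated at 0.949 to 0.960. Neither of the Tob1 probe sets passed between the genotypes and they went opposite ways: at 24 h 1423176_at differed by 0.59 ± 0.16 (adjusted p = 0.353) and 1440844_at by -1.30 ± 0.65 (adjusted p = 0.559), null minus wild type. It is not known here where these probe sets lie relative to the deleted part, so they do not check the labels, and the arrays are called null-labelled. Of 6 hepatocyte markers 5 had a probe set, and their summed linear signal was 45999.7 to 47556 and 44601 to 46895 in null-labelled and wild-type livers at 24 h, against 47701 to 48249.8 and 45231 to 49281 in those groups at 0 h. That sum was weighted to Alb, Apoa1 and Ttr, the brightest of the 5. In the mean response of both genotypes Cps1 alone of the 5 fell, by limma with a difference of -0.40 (adjusted p = 0.0437), and 0 rose. Among all genes taken by their brightest probe set 12.1% were higher and 13.1% lower. In whole liver, fewer cells of a type and less RNA per cell cannot be told apart. The log2 ratio of 3' to 5' actin signal, a sign of RNA quality, was 1.27 ± 0.07 and 0.97 ± 0.09 in null-labelled and wild-type arrays at 24 h, against 1.56 ± 0.03 and 1.22 ± 0.25 in those groups at 0 h (SD, n = 2 each). It was thus lower at 24 h and higher in null-labelled arrays, and its part in the results was not tested. Some markers of other liver cells moved between the times as well. Of 6 stellate cell markers 3 fell in the mean response of both genotypes and 0 rose, against 12.1% higher and 13.1% lower among all genes. They were Des, Reln and Rgs5 (adjusted p = 0.0153, 0.0183 and 0.0473). Of the others, Lrat read lower at -1.65 and Pdgfrb and Col1a1 higher at 0.37 and 0.21, without passing. The summed linear signal of the 6 was 544 to 569 and 572 to 708 in null-labelled and wild-type livers at 24 h, against 783 to 1046 and 1051 to 1103 in those groups at 0 h, without overlap. The neutrophil gene S100a8 rose by 2.88 (adjusted p = 0.0204), 1 of 4 tested leucocyte markers other than macrophage genes to do so, and the B cell gene Cd79a fell (adjusted p = 0.0496). Of 6 endothelial markers Pecam1 rose (adjusted p = 0.0163), and of 4 ductal markers Sox9 (adjusted p = 0.048), each alone in its list. The other endothelial markers went both ways without passing. Cdh5 and Lyve1 read higher at 0.42 and 0.92, and Kdr, Stab2 and Clec4g lower at -0.73, -0.22 and -0.26. The leucocyte, endothelial and ductal counts stand against the same 12.1% higher and 13.1% lower among all genes. The part of these cells in the results was not tested.

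After hepatectomy, taking the mean response of both genotypes, 12 of the 20 tested probe sets were higher at 24 h than at 0 h and 0 were lower, against 12.4% higher and 11.4% lower among all tested probe sets. The 12 belong to 7 genes: Srxn1, Txnrd1, Gsr, Hmox1, Nqo1, Nfe2l2 and Keap1. The glutathione synthesis genes Gclc and Gclm and the cystine transporter Slc7a11 had no probe set that passed. Of the 12 calls, 8 in 5 genes (3 of Srxn1, 2 of Txnrd1 and 1 each of Gsr, Hmox1 and Nfe2l2) passed under every alternative processing that included the probe set. Leaving out each array in turn was among these. For Gsr and Txnrd1 these were not the brightest probe set of the gene, whose call was lost in some alternatives. The median difference was 0.59 over the 20 probe sets and -0.02 over all tested. In 11 of the 20, all 4 arrays at 24 h lay above all 4 at 0 h, which held for 14.8% of all tested probe sets, and in 0 of them below, against 13.9% of all.

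**Figure D1:**
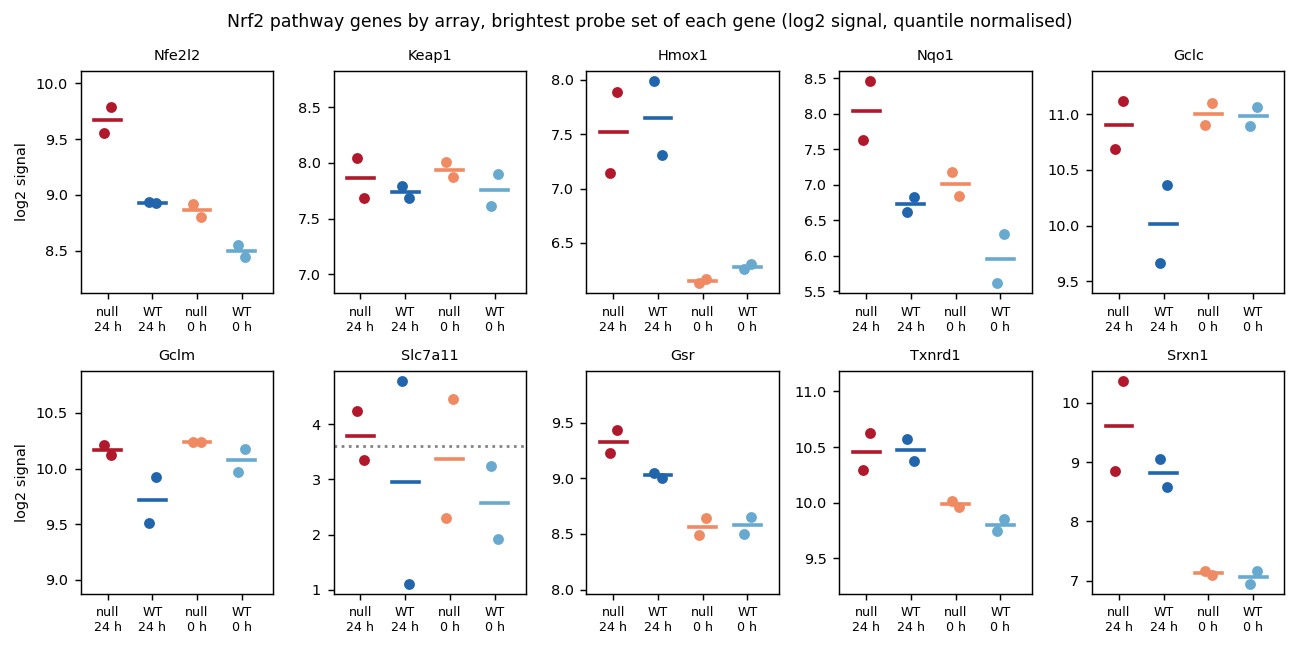
Log2 signal (quantile normalised, vertical axis) of the brightest probe set of each of the 10 genes, by group (horizontal axis; null is null-labelled, WT wild type). Points are arrays, each a pool of 3 mice, bars are means of 2 arrays, and the dotted line in the Slc7a11 panel is the signal limit of 3.60. Srxn1 and Hmox1 have every 24 h array above every 0 h array, while Keap1 overlaps between times.

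Nfe2l2 itself rose modestly after surgery. Its bright probe set 1416543_at read 9.55 and 9.79 in null-labelled livers and 8.93 and 8.92 in wild-type livers at 24 h, against 8.92 and 8.80 in null-labelled and 8.55 and 8.44 in wild-type livers at 0 h. All 24 h arrays lay above all 0 h arrays, though wild type at 24 h barely exceeded null-labelled livers at 0 h. The mean response was 0.62 ± 0.10 (1.54-fold, adjusted p = 0.0124). The dim Nfe2l2 probe set 1457117_at was above the signal limit in 6 of 8 arrays and differed by 0.43 with an adjusted p of 0.530.

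Keap1, the adaptor that brings Nrf2 to its ubiquitin ligase, gave different results at its 2 probe sets. The brighter one, 1450746_at, read 8.04 and 7.68 in null-labelled and 7.79 and 7.68 in wild-type livers at 24 h, against 8.01 and 7.87 in null-labelled and 7.62 and 7.91 in wild-type livers at 0 h. Its groups overlapped and the mean response was -0.051 (adjusted p = 0.806), with a sign that changed under other scalings. The dimmer one, 1450747_at, read 6.44 and 5.92 in null-labelled and 5.80 and 6.12 in wild-type livers at 24 h, against 5.37 and 5.26 in null-labelled and 5.71 and 5.61 in wild-type livers at 0 h. It rose by 0.58 ± 0.15 (adjusted p = 0.0428), a call that was lost without any single array except the second of the null-labelled arrays at 24 h, with adjusted p up to 0.112. The 2 probe sets correlated at -0.05 over the 8 arrays.

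Among 17 other genes that regulate Keap1 or Nrf2, 1 rose and 3 fell in the mean response, against 12.1% higher and 13.1% lower among all 14424 genes taken by their brightest probe set. The riser was Pgam5, a mitochondrial phosphatase that binds Keap1, at 0.57 ± 0.10 (adjusted p = 0.0131). Bach2, a repressor that shares partners with Nrf2, fell with a difference of -1.79 ± 0.34 (adjusted p = 0.0179). Its relative Bach1, which represses Hmox1, fell with a difference of -0.38 ± 0.09 (adjusted p = 0.0307). Dcaf11, a ubiquitin ligase substrate receptor, fell with a difference of -0.73 ± 0.13 (adjusted p = 0.0155). The list's median was -0.07, against -0.04 over all genes, and without 1 array the number that fell ranged 0 to 4, with Bach1 passing in 1 of the 8 such fits, Bach2 in 4 and Dcaf11 in 6.

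Hmox1, which opens the haem ring to give biliverdin, iron and carbon monoxide, rose after surgery by 1.37 ± 0.22 (2.58-fold, adjusted p = 0.0117). Its probe set 1448239_at read 7.14 and 7.89 in null-labelled and 7.99 and 7.31 in wild-type livers at 24 h, against 6.13 and 6.16 in null-labelled and 6.26 and 6.30 in wild-type livers at 0 h. The 0 h arrays lay close together and every 24 h array lay above them. Hmox1 is also expressed in Kupffer cells, the resident macrophages of liver. Of 8 Kupffer and macrophage markers, all measured, 2 rose and 2 fell in the mean response, against 12.1% higher and 13.1% lower among all genes. Marco rose by 4.07 and Cd68 by 1.26, and Csf1r and Adgre1 fell with differences of -0.71 and -0.52. None of the 8 was below the signal limit in all arrays. Their summed linear signal was 2115 to 2529 and 1794 to 2260.2 in null-labelled and wild-type livers at 24 h, against 2045 to 2049.95 and 2028 to 2286 in those groups at 0 h. That sum was weighted to bright markers such as Cd5l. The part of macrophages in the Hmox1 result was not tested.

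Of 7 tested genes of haem and iron handling other than Hmox1, 2 rose and 1 fell, against 12.1% higher and 13.1% lower among all genes. Slc48a1, a transporter that moves haem out of lysosomes, rose by 0.91 ± 0.13 (adjusted p = 0.00884). Fech, which inserts iron in the last step of haem synthesis, fell with a difference of -0.76 ± 0.10 (adjusted p = 0.00677). Alas1, the rate-limiting enzyme of haem synthesis in liver, rose by 0.95 ± 0.16 in the mean of both genotypes (adjusted p = 0.0124). Alas1 read 11.15 and 11.55 in null-labelled and 11.88 and 12.00 in wild-type livers at 24 h, against 11.52 and 11.15 in null-labelled and 9.87 and 10.21 in wild-type livers at 0 h. The null-labelled arrays overlapped between times, with a difference of 0.011, against 1.90 in wild type (adjusted p = 0.024), and the difference between these responses, -1.89 ± 0.32, did not pass (adjusted p = 0.514). The summed erythroid marker signal, from 2 of 5 markers with a probe set, was 350.3 to 407 and 580.5 to 586 in null-labelled and wild-type livers at 24 h, against 765 to 927 and 1225 to 1254 in those groups at 0 h. That sum was nearly all Alas2, since the other marker, Hba-a1, did not pass the filter on low signal. Alas2 fell in the mean response with a difference of -1.13 ± 0.11 (adjusted p = 0.00449). The part of this signal in the haem results was not tested.

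Nqo1, which reduces quinones with 2 electrons and so avoids semiquinone radicals, rose by 0.90 ± 0.25 in the mean response (1.87-fold, adjusted p = 0.0483). Probe set 1423627_at read 7.63 and 8.46 in null-labelled and 6.62 and 6.83 in wild-type livers at 24 h, against 7.18 and 6.84 in null-labelled and 5.61 and 6.30 in wild-type livers at 0 h. Both genotypes were higher at 24 h than their own 0 h arrays, but wild type at 24 h did not exceed null-labelled livers at 0 h. The call was close to the threshold: it was lost without any single array other than the first null-labelled array at 24 h, with adjusted p up to 0.123.

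Among the members, Gclc and Gclm of glutathione synthesis did not rise with the others. Gss, glutathione synthetase, is not a member and rose by 0.45 ± 0.12 in the mean response (adjusted p = 0.041). Gclc, the catalytic subunit of glutamate-cysteine ligase, read 10.68 and 11.12 in null-labelled and 9.67 and 10.37 in wild-type livers at 24 h, against 10.91 and 11.10 in null-labelled and 10.90 and 11.06 in wild-type livers at 0 h (1424296_at). Wild-type livers at 24 h were below all 6 other arrays, whereas null-labelled livers overlapped between times. The mean response was -0.53 ± 0.19 (adjusted p = 0.0988), made up of -0.10 in null-labelled livers (adjusted p = 0.831) and -0.96 ± 0.28 in wild type (adjusted p = 0.0954). The other Gclc probe set, 1455959_s_at, gave -0.58 ± 0.22 (adjusted p = 0.103), and the pair correlated at 0.991 over the arrays. The lower mean response of 1424296_at passed in 3 alternatives, with adjusted p from 0.0431, and not otherwise.

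Gclm, the modifier subunit that raises the ligase's affinity for glutamate, read 10.22 and 10.12 in null-labelled and 9.51 and 9.93 in wild-type livers at 24 h, against 10.24 and 10.24 in null-labelled and 9.97 and 10.18 in wild-type livers at 0 h (1418627_at). Wild-type livers at 24 h were again the lowest arrays at this probe set. At 1439050_at they read 8.48 and 8.82 and overlapped null-labelled livers at 24 h, at 8.76 and 8.99. The mean responses of its probe sets were -0.22 ± 0.13 (adjusted p = 0.271) and -0.26 (adjusted p = 0.205, 1439050_at). Slc7a11, the xCT light chain that imports cystine for glutathione, was near the bottom of the scale. Its probe set 1443536_at was above the signal limit of 3.60 used as the filter in 3 of 8 arrays and its mean response was 0.39 ± 0.93 (adjusted p = 0.790), while 1420413_at was above it in none and was not tested. The difference of Slc7a11 thus had an SE larger than itself. Slc3a2, the heavy chain that pairs with it and with other transporters, rose by 0.74 ± 0.11 (adjusted p = 0.00955).

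In the wider glutathione list, 13 of 15 genes were tested, of which 4 rose and 6 fell, against 12.1% higher and 13.1% lower among all genes. Besides Slc3a2, Ggct, which cleaves gamma-glutamyl dipeptides, rose by 0.93 ± 0.17 (adjusted p = 0.0163). Cbs, which makes cystathionine on the way from methionine to cysteine, fell with a difference of -1.22 ± 0.19 (adjusted p = 0.0103). The secreted peroxidase Gpx3 fell with a difference of -1.27 ± 0.19 (adjusted p = 0.00926). The median of the list was -0.16, and without 1 array the counts ranged 1 to 4 higher and 2 to 6 lower. Atf4 is a factor that also acts on Slc7a11. In a list of 10 genes, Atf4 itself and its targets, 2 rose and 0 fell, against those same 12.1% and 13.1%. They were Psat1 of serine synthesis at 2.55 and asparagine synthetase Asns at 1.62 (adjusted p = 0.00354 and 0.00594). The median of these 10 genes was 0.13, against -0.04 over all genes, and Atf4 itself differed by 0.07 (adjusted p = 0.805).

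Gsr, the reductase that restores glutathione from its disulfide with NADPH, rose at both probe sets. At 1421817_at it read 9.22 and 9.44 in null-labelled and 9.04 and 9.01 in wild-type livers at 24 h, against 8.49 and 8.64 in null-labelled and 8.50 and 8.66 in wild-type livers at 0 h. At 1421816_at it read 9.11 and 9.36 in null-labelled and 9.15 and 9.03 in wild-type livers at 24 h, against 8.30 and 8.36 in null-labelled and 8.51 and 8.52 in wild-type livers at 0 h. The groups at 24 h and 0 h did not overlap at either. The mean responses were 0.60 ± 0.11 (1.52-fold, adjusted p = 0.0139) and 0.74 ± 0.10 (1.67-fold, adjusted p = 0.00827), and the first was lost without single 0 h arrays, with adjusted p up to 0.0523. Of the 6 tested genes that supply NADPH, 1 fell and 0 rose, against 12.1% higher and 13.1% lower among all genes. It was Idh1, cytosolic isocitrate dehydrogenase, at -0.47 ± 0.12 (adjusted p = 0.0407). The Idh1 call was lost in most of the fits that leave out an array.

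**Figure D2:**
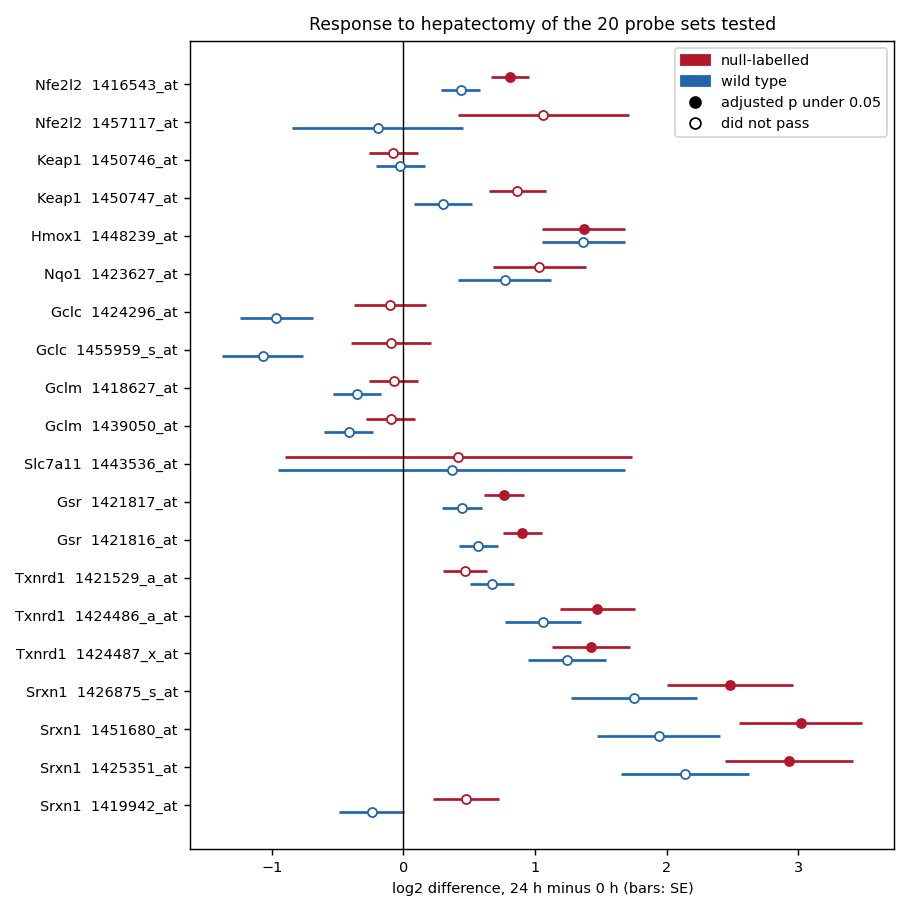
Log2 difference of 24 h minus 0 h (horizontal axis) for each of the 20 tested probe sets (vertical axis), in null-labelled livers and in wild type, 2 arrays against 2. Bars are SE, and filled points passed at an adjusted p under 0.05. The bright Srxn1 probe sets, Txnrd1, Hmox1 and Gsr lie right of 0 in both genotypes, and the 2 Gclc probe sets lie left of it in wild type, at -0.96 and -1.07.

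Txnrd1, the cytosolic selenoenzyme that reduces thioredoxin, rose at all 3 of its probe sets. The brightest, 1421529_a_at, read 10.29 and 10.62 in null-labelled and 10.57 and 10.37 in wild-type livers at 24 h, against 10.01 and 9.97 in null-labelled and 9.74 and 9.85 in wild-type livers at 0 h. Probe set 1424486_a_at read 6.84 and 7.36 in null-labelled and 6.95 and 7.16 in wild-type livers at 24 h, against 5.39 and 5.86 in null-labelled and 6.26 and 5.73 in wild-type livers at 0 h. No array at 0 h reached those at 24 h on either. The mean responses were 0.57 ± 0.12 (1.49-fold, adjusted p = 0.0214) and 1.27 ± 0.20 (2.41-fold, adjusted p = 0.0112), and 1424487_x_at gave 1.33 ± 0.21 (2.52-fold, adjusted p = 0.0108). The brightest probe set thus gave the smallest difference, and its call was lost without 5 of the single arrays, with adjusted p up to 0.0718. The pairs of Txnrd1 probe sets correlated at 0.824 to 0.995.

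Srxn1, sulfiredoxin, which repairs over-oxidised peroxiredoxins, had the largest responses of the 10 genes. Its brightest probe set 1426875_s_at read 8.84 and 10.37 in null-labelled and 9.05 and 8.58 in wild-type livers at 24 h, against 7.16 and 7.09 in null-labelled and 6.95 and 7.17 in wild-type livers at 0 h. Probe set 1451680_at read 8.04 and 9.54 in null-labelled and 8.19 and 7.92 in wild-type livers at 24 h, against 5.79 and 5.76 in null-labelled and 6.29 and 5.95 in wild-type livers at 0 h. The 0 h arrays were low and close together, and of the null-labelled 24 h arrays the second was the highest of all. The mean responses were 2.12 ± 0.34 (4.34-fold, adjusted p = 0.0112), 2.48 ± 0.33 (5.57-fold, adjusted p = 0.00746) and, at 1425351_at, 2.53 ± 0.34 (5.79-fold, adjusted p = 0.00778). These 3 probe sets correlated at 0.984 to 0.995. The fourth, 1419942_at, correlated with them at only 0.363 to 0.459 and gave 0.12 ± 0.18 (adjusted p = 0.662).

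**Figure D3:**
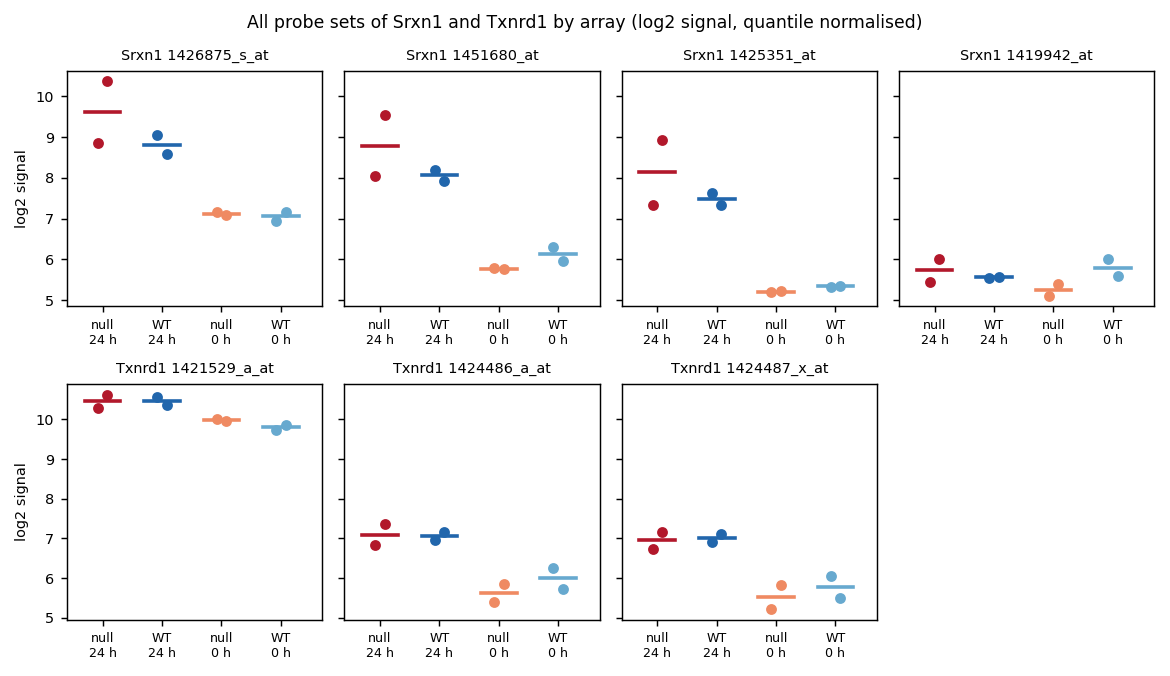
Log2 signal (quantile normalised, vertical axis) of every probe set of Srxn1 and Txnrd1 by group (horizontal axis; null is null-labelled, WT wild type). Points are arrays and bars are means of 2 arrays. Of the Srxn1 probe sets, 3 separate the 24 h arrays from the 0 h arrays and 1419942_at stays between 5.11 and 6.01 on all 8 arrays.

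Of 14 other tested genes of the thioredoxin and peroxide list, 0 rose and 5 fell, against 12.1% higher and 13.1% lower among all genes, with a list median of -0.24. Prdx4, a peroxiredoxin of the endoplasmic reticulum, fell with a difference of -0.49 ± 0.09 (adjusted p = 0.0176). Txnip, which binds thioredoxin and inhibits it, fell with a difference of -1.17 ± 0.24 (adjusted p = 0.0218). The extracellular superoxide dismutase Sod3 gave -0.65 ± 0.14 (adjusted p = 0.0259) and Txnrd3 gave -0.51 ± 0.10 (adjusted p = 0.0178). Without 1 array the number that fell ranged 0 to 5, and each of these 4 calls was lost in some of those fits.

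A further list held 28 genes known as Nrf2 targets, mostly glutathione transferases, reductases and transporters, and 25 were tested. In the mean response 1 rose and 4 fell, against 12.1% higher and 13.1% lower among all genes, with a median of -0.32, against -0.04 over all genes. Without 1 array these counts ranged 0 to 1 higher and 2 to 4 lower, and under the other alternatives 0 to 5 higher and 3 to 11 lower. Cbr1, a carbonyl reductase, rose by 0.76 (adjusted p = 0.0426), a call that passed in 1 of the 8 fits that leave out an array, with adjusted p up to 0.116. Aox1, aldehyde oxidase, fell with a difference of -1.11 (adjusted p = 0.0123). The carboxylesterase Ces1g fell with a difference of -1.03 (adjusted p = 0.0101), and the glutathione transferase Gsta3 with one of -1.21 (adjusted p = 0.0194). Whether the 10 genes respond unlike this longer list was not tested.

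**Figure D4:**
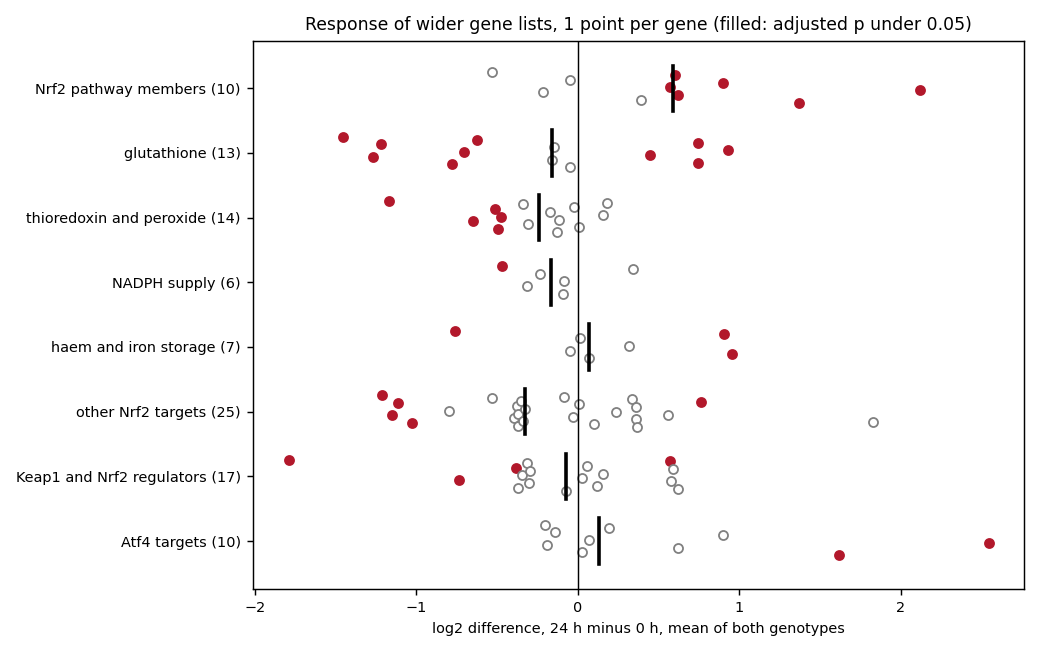
Log2 difference of 24 h minus 0 h (horizontal axis, mean of both genotypes) for the tested genes of the 10-gene set and of 7 wider lists (vertical axis, number of tested genes in brackets). Each point is a gene by its brightest probe set, filled where it passed, and the black bar is the list median. The median of the 10 genes is 0.59, and those of the thioredoxin and peroxide list and of the other Nrf2 targets are -0.24 and -0.32.

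Within each genotype the calls were fewer. In null-labelled livers 9 of the 20 probe sets rose, in 5 genes, and 0 fell, against 6.06% higher and 4.72% lower among all tested. They were the 3 bright Srxn1 probe sets at 2.48 to 3.02 (adjusted p = 0.0237 to 0.0336), both Gsr probe sets, Hmox1 at 1.37 ± 0.32 (adjusted p = 0.0475), Nfe2l2 at 0.81 ± 0.15 (adjusted p = 0.0302) and 2 of Txnrd1. The arrays at 24 h lay above those at 0 h in 13 of the 20 and below in 1, against 29.7% and 30.6% of all tested. None of the 9 calls held in every alternative, and without 1 array 0 to 6 probe sets passed. In wild type 0 of the 20 passed in limma, against 5.34% of all tested, although 12 had an unadjusted p under 0.05, against 26.2% of all tested. In wild type the arrays at 24 h lay above those at 0 h in 12 of the 20 and below in 5 (both Gclc and both Gclm probe sets and Srxn1 1419942_at), against 29.8% and 29.7% of all tested. Srxn1 differed by 1.75 ± 0.48 (adjusted p = 0.0877, 1426875_s_at) and Hmox1 1.37 ± 0.32 (adjusted p = 0.0623) in wild type. With a trended and robust prior 12 probe sets passed in null-labelled livers and 11 in wild type. Of all 30525 tested, 5906 and 4536 passed with that prior.

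The difference between the responses, null-labelled minus wild type, passed for 0 of the 20 probe sets and for 0% of all tested in limma, with an unadjusted p under 0.05 for 0 of the 20 and 7.97% of all. A pass in 1 genotype and not in the other is thus no measured difference between them. The smallest p was that of Gclc, at 0.86 ± 0.39 (adjusted p = 0.647, 1424296_at) and 0.97 (adjusted p = 0.645, 1455959_s_at). These differences were positive at 18 of 20 probe sets with a median of 0.36, against -0.0042 over all tested. With a trended and robust prior 0 of the 20 passed as well.

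Between the genotypes at 24 h, null-labelled livers read higher than wild type at 17 of the 20 probe sets, with a median of 0.38 against -0.01 over all tested, but 0 of the 20 and 0% of all tested passed in limma. An unadjusted p under 0.05 was reached by 5 of the 20, against 10.3% of all. These were Nfe2l2 at 0.74 ± 0.15 (adjusted p = 0.279), Nqo1 at 1.32 ± 0.35 (adjusted p = 0.356), both Gclc probe sets at 0.88 ± 0.28 and 0.96 ± 0.31 (adjusted p = 0.399 and 0.404) and Gclm at 0.45 ± 0.18 (adjusted p = 0.485). The other Gclm probe set, 1439050_at, differed by 0.23 (adjusted p = 0.717), and its arrays overlapped. For the 5 probe sets both null-labelled arrays lay above both wild-type arrays. Such separation was seen upwards in 6 of the 20 and downwards in 0, against 19.2% and 20.4% of all. With a trended and robust prior 1 of the 20, Nfe2l2, passed (adjusted p = 0.0265), as did 198 of all tested. All 8 Kupffer and macrophage markers also read higher in null-labelled livers at 24 h, with a median of 0.26 and none passing, and their part in these values was not tested.

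At 0 h the genotypes differed at 0 of the 20 probe sets and 0% of all in limma, with an unadjusted p under 0.05 for 2 of the 20 and 9.1% of all. The 2 were Nqo1, higher in null-labelled livers by 1.05 ± 0.35 (adjusted p = 0.478), and Nfe2l2, by 0.37 ± 0.15 (adjusted p = 0.540). Nqo1 and Nfe2l2 thus read higher in null-labelled than in wild-type livers at both times, without passing at either. Separation of the arrays was seen upwards in 4 and downwards in 6 of the 20, against 22.2% and 24% of all. With a trended and robust prior 0 of the 20 passed. The comparisons at 24 h share their arrays with the responses above.

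**Figure D5:**
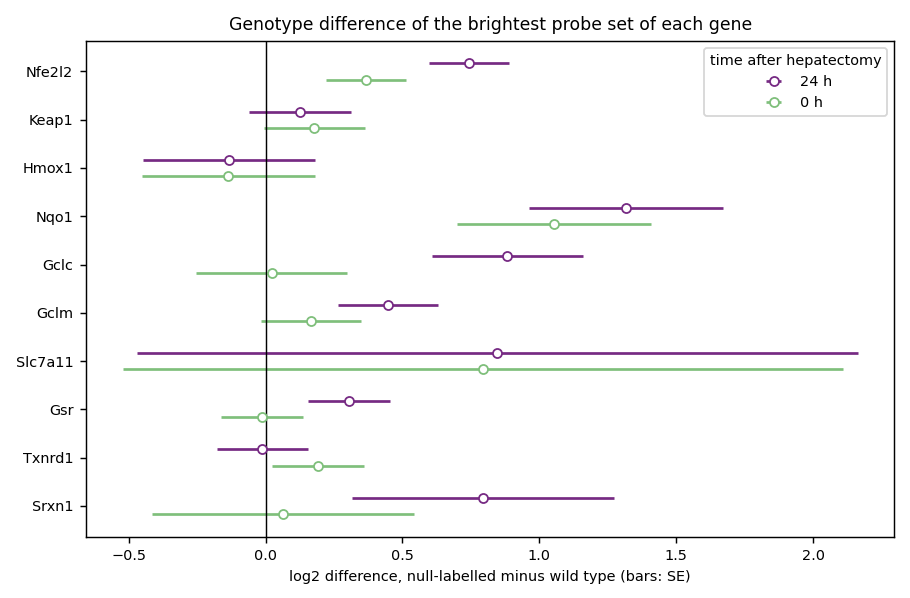
Log2 difference of null-labelled minus wild type (horizontal axis) for the brightest probe set of each of the 10 genes (vertical axis), at 24 h and at 0 h, 2 arrays against 2. Bars are SE. None passed, and Nqo1 lies at 1.32 at 24 h and 1.05 at 0 h.

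Promoter windows of 250 bases before and 50 after each transcription start were taken from RefSeq (GRCm38.p6), which gave 9 windows for 7 of the 10 genes; Gsr, Hmox1 and Gclc had no entry. The core of the antioxidant response element was searched on both strands as TGACNNNGC, where N is any base. It was found in 4 of the 9 windows and in 12.4% of all 32851 windows. The bases upstream of the start are printed 5' to 3' on the gene's strand for the 4 genes with a match, to show where each lies, and capitals mark the matches.
Nfe2l2: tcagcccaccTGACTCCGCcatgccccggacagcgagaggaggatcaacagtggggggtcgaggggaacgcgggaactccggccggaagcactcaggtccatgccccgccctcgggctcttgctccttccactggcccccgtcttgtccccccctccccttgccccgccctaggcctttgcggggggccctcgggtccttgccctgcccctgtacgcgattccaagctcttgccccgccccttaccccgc
Gclm: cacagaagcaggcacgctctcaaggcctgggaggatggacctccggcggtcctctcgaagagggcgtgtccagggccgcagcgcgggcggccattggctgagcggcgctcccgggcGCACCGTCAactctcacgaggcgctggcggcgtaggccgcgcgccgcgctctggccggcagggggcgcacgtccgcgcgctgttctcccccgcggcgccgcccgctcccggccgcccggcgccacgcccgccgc
Txnrd1: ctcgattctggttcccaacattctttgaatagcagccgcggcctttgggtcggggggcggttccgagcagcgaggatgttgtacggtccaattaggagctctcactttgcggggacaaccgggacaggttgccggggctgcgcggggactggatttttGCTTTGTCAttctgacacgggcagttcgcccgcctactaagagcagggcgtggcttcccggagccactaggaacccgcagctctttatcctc
Srxn1: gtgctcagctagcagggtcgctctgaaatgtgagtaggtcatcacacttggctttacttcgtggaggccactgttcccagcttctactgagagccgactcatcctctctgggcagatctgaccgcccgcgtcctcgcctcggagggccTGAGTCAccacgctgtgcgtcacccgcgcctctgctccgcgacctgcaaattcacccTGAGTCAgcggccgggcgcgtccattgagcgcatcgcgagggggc
The windows are chr2:75704664-75704913 on the minus strand for Nfe2l2 and, on the plus strand, chr3:122245307-122245556 for Gclm, chr10:82858956-82859205 for 1 of the 3 starts of Txnrd1 and chr2:152105274-152105523 for Srxn1. The match lay 240 to 232 bases before the start in Nfe2l2. In Gclm it lay on the opposite strand 134 to 126 bases before the start, and in Txnrd1, also on the opposite strand, 92 to 84 bases before it. The Srxn1 match lay inside the transcript, at bases 29 to 37. The capitals in the Srxn1 sequence are not matches to TGACNNNGC but 2 copies of TGAGTCA, the AP-1 core. They lie 102 to 96 and 45 to 39 bases before the start, and the motif was chosen after the sequences were seen. The second copy is followed by gc and so differs from TGACNNNGC only by G in place of C, a variant not searched. TGAGTCA was found in no other of the 9 windows and in 5.2% of all. Of the 4 genes with an antioxidant element core in these windows, Nfe2l2, Txnrd1 and Srxn1 rose and Gclm did not pass. Of the 3 with windows and no core, Keap1 (at 1 of its probe sets) and Nqo1 rose and Slc7a11 did not pass. Elements outside these short windows are missed, so no match here does not mean that a gene has none. Whether matches go with responses was not tested. These letters are a description and not a bound site.

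Over the 8 arrays, the genes whose level followed a member most closely were named from all 14423 other genes by Pearson's r, as a description of arrays that share the hepatectomy contrast. Srxn1 was followed by Ufsp1 at 0.997 and Mrap at 0.993. Hmox1 was followed by Tnfrsf12a and Nhp2, both at 0.997, and Gsr by Lmo4 at 0.993 and Gfer at 0.992. For Txnrd1 they were Samm50 at 0.994 and Cttn at 0.993, and for Nfe2l2 Chst13 at 0.982 and Sec11a at 0.978. Nqo1 was followed by Fam72a at 0.987 and Zfp975 at 0.979, and Keap1 by Hps6 at 0.970 and St8sia1 at 0.939.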

How the data were processed

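Liver RNA was hybridised to Affymetrix arrays, and the deposited values are on a log2 scale, as the values themselves show. Which algorithm made them is not known here. Samples were grouped by the genotype and time in their labels. After removal of 64 control probe sets, the lower quartile, median and upper quartile spread over 0.62, 0.38 and 0.17 among the arrays, so these were quantile normalised. A probe set was tested if it lay above the 40th percentile (3.60) in at least 2 of 8 arrays, which left 30525. A linear model with 1 mean per group was fitted with limma 3.58.1 in R 4.3.3 (4 residual and 2.04 prior degrees of freedom), two-sided, with Benjamini-Hochberg adjustment over all probe sets tested. The number of arrays limits the precision, and the labels say that each array is a pool of 3 different animals.

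All probe sets of the members were described. Genes outside them were taken by their brightest probe set, and up to 4 of each list with the smallest p among those that passed were named; others that are named were chosen after their values were seen. The members and lists were chosen with earlier results of these data known. Of 45037 probe sets, 34945 had 1 symbol, 932 several and 9160 none in the platform annotation, which can be old. The alternatives were the deposited values, median centring, no filter, a filter at the 60th percentile, the brightest probe set per gene, a prior fitted as a robust trend, weights per array, the replicate number as a block, fits to only the groups compared, adding 16 on the linear scale, and leaving out each array. The fit was tested on simulated data. A fit without 1 array assumes that the remaining array of that group varies like those of the other groups.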

Additional observations from a re-analysis of the deposited data

How the results depend on the processing

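In the mean response, 12 probe sets of the 10 genes and 7259 of all passed; without 1 array these were 8 to 11 and 3438 to 6420. With no filter 3808 of all passed, and by the brightest probe set per gene 6 of the 10 genes and 4162 of all. In null-labelled livers 9 and 3289 passed as reported, and without 1 array 0 to 6 and 9 to 2105. They were 0 and 71 with no filter, 4 and 2121 by brightest probe set, and 0 and 0 with only the groups compared. All probe sets passing there were 5610 with the 60th percentile filter, 5906 with a trended prior and 5209 with 16 added. In wild type 0 and 1630 passed as reported, and without 1 array 0 to 3 and 0 to 1544. Here 10 and 4000 passed with the 60th percentile filter, 11 and 4536 with a trended prior, 10 and 3614 with 16 added, 1 of the 10 genes by brightest probe set and 3 probe sets with array weights. Of all probe sets 980 passed there with median centring, 12 with no filter and 0 with only the groups compared. For the genotypes at 24 h, 3 of all passed with the deposited values, 3 with median centring, 8 with the 60th percentile filter, 1 by brightest probe set and 50 with 16 added, and with a trended prior 1 of the 10 genes' probe sets and 198 of all. At 0 h 40 passed with a trended prior and 12 with 16 added, and 23 passed for the difference of responses with a trended prior. Replicate numbers do not pair the arrays: same-numbered arrays' deviations correlated at -0.17 to 0.06. With the replicate block 0 and 704 passed in null-labelled livers, 6 of all in wild type and 10 of the 10 genes' probe sets in the mean response; with the numbers crossed at 24 h 0 passed between genotypes.

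Over 64 single differences, 1099 alternatives kept direction and side of the threshold in 915, fell short of it in 113, newly passed in 51 and reversed in 20, all of these in values that had not passed. Keap1 1450746_at gave 0.023 (mean), 0.014 (null-labelled) and 0.032 (wild type) with the deposited values and 0.13, 0.18 and 0.076 in that order with median centring, which moved the median of all probe sets to 0.11 in null-labelled livers. Without 1 array its range was -0.14 to 0.038, -0.26 to 0.10 and -0.17 to 0.12. Slc7a11 1443536_at ranged -0.52 to 1.31 (mean), -0.67 to 1.48 (null-labelled) and -1.47 to 2.20 (wild type), Srxn1 1419942_at -0.021 to 0.25 (mean) and Gclc 1424296_at -0.32 to 0.12 (null-labelled). Gclm 1418627_at gave 0.057 in null-labelled livers with median centring. The causes were not tested, beyond the smaller number of arrays or probe sets in those fits. The dim Slc7a11 probe sets limit what can be said of that gene.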

Other observations

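Several glutathione transferases of the list of other known Nrf2 targets read higher in null-labelled livers than in wild type at 24 h, and these genes were chosen after their values were seen. Of the 25 tested genes 18 had a positive difference, with a median of 0.55 against 0.0059 over all genes, and 0 passed in limma, with an unadjusted p under 0.05 for 13, against 10.3% of all probe sets. Of these, 11 were higher and 2 lower (Aldh3a2 at -0.80 and Abcc2 at -0.45). Gstm3, a mu-class transferase, differed by 2.58 ± 0.17 (adjusted p = 0.0696), which passed in 6 of 18 alternatives with adjusted p from 1.6e-05 to 0.469 over them, and in none that left out an array. Mu-class transferase genes are near-identical in sequence, so the gene behind that probe set is uncertain. The alpha-class genes Gsta2 and Gsta4 differed by 1.65 ± 0.44 (adjusted p = 0.353) and 1.54 ± 0.36 (adjusted p = 0.307). Cbr1 differed by 1.32 ± 0.28 (adjusted p = 0.291). In null-labelled livers, 3 genes of the list rose after hepatectomy and 0 fell, against 6.06% higher and 4.72% lower among all probe sets: Gstm3 by 1.39, Cbr1 by 1.27 and Gstm2 by 0.84, with adjusted p = 0.0169, 0.0451 and 0.0464. In wild type 0 rose and 2 fell, against 5.34% of all probe sets that passed in either direction. The difference between these responses passed for 0 of the 25 genes in limma. An unadjusted p under 0.05 was reached by 6, of which 5 were positive and 1 negative, against 7.97% of all probe sets.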
